A study of Homo sapiens with 26 samples.

Results

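Metallothioneins, the zinc exporter SLC30A1 and the zinc-sensing transcription factor MTF1 were followed across 26 arrays of human renal carcinoma cells. The set holds 9 genes (MT1E, MT1F, MT1G, MT1H, MT1M, MT1X, MT2A, SLC30A1 and MTF1) of the 19775 genes that the array annotation names, and every probe set naming one of them alone was taken, 17 in all. No probe set of these genes listed a further metallothionein. The cells are 786-O per the series text, a clear cell renal carcinoma line known for lacking a functional VHL protein, so that HIF-2a stays high in it.

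Total RNA was hybridised to Affymetrix U133 Plus 2.0 arrays, and the 8 groups of 3 arrays are titled Blk, DMSO, 40, 41, 76, 77, PRC3 and WT8. Blk was taken as the untreated cells by elimination, DMSO is the vehicle, and 40, 41, 76 and 77 were taken as the 4 HIF-2a inhibitor compounds that the series text mentions. These are code names, and the sources used here give neither doses nor treatment times. PRC3 and WT8 are not explained by the labels. Both names are in wide use for 786-O sublines that carry an empty vector or VHL, which the labels do not state. The meaning of the single arrays pTR and pTV is not given either. Whether the 3 arrays of a group stand for separate cultures is not stated in the labels. The p-values therefore cover the spread among arrays alone, and that spread could be technical. In bulk RNA, fewer cells that express a gene and less RNA per cell cannot be told apart.

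Metallothioneins are small, cysteine-rich proteins that bind zinc, copper and cadmium and buffer free zinc in the cell. MTF1 binds zinc and then metal response elements, short DNA motifs in the promoters of metallothionein genes and of SLC30A1, and raises their transcription. SLC30A1 (ZnT1) sits in the plasma membrane and moves zinc out of the cell. In the kidney, metallothioneins are best known for holding cadmium and zinc in the proximal tubule.

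The motifs that tie these genes together are shown first, since they are the sequence that MTF1 reads. The core of a metal response element was searched as TGCACNC and as TGCGCNC, on both strands, in the 250 bases before the annotated start, from RefSeq promoters on GRCh38.p14. The table held promoters of 5 of the 9 genes, and MT1E, MT1F, MT1G and MT1M were not in it. The printed windows are the match nearest to about 50 bases before the start and, for the metallothioneins, the next one upstream. They are written 5′ to 3′ on the strand of the gene, and capitals mark the motif, which reads on the opposite strand where it appears as its reverse complement:
MT2A, chr16:56608522-56608544, plus strand, motif from base -54: ggggctttTGCACTCgtcccggc
MT2A, chr16:56608488-56608510, plus strand, motif from base -88, reverse complement: cgcggggcGTGTGCAggcagcgc
MT1X, chr16:56682409-56682431, plus strand, motif from base -53: ggggcctcTGCGCCCggccctct
MT1X, chr16:56682384-56682406, plus strand, motif from base -78, reverse complement: gcaggggcGGGTGCAaggacgag
MT1H, chr16:56669753-56669775, plus strand, motif from base -53: agggtctcTGCACCCggctccct
MT1H, chr16:56669728-56669750, plus strand, motif from base -78, reverse complement: agtgggtcGGGTGCAagggtggg
SLC30A1, chr1:211579196-211579218, minus strand, motif from base -49, reverse complement: ggggttccGAGTGCAaagcaaag

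MT1H had 8 matches in its 250 bases, MT2A had 7, MT1X had 4, SLC30A1 had 1 and MTF1 had 0. Of all 35116 promoters in the table, 24.83% held at least 1 match, 6.481% at least 2, 1.58% at least 3 and 0.3702% at least 4. The SLC30A1 promoter is thus 1 of the many with at least 1 match, while MT1H, MT2A and MT1X are among the few with at least 4. A match is a description of the letters and not a binding site, and 0 matches in MTF1 says only that these letters are not in this window.

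**Figure D1:**
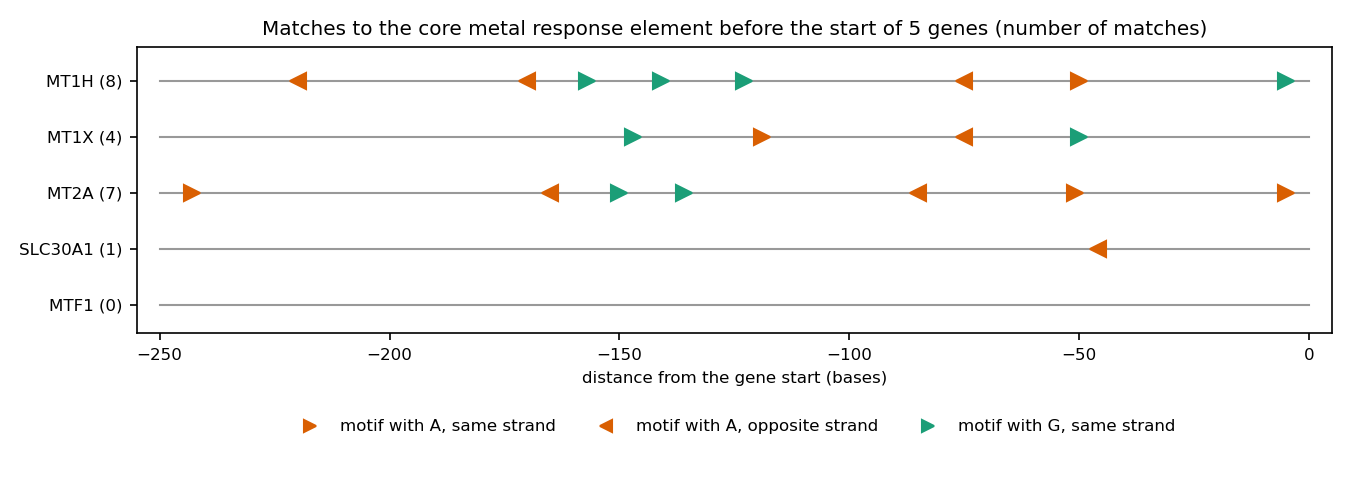
Positions of TGCACNC and TGCGCNC matches in the promoters of MT2A, MT1X, MT1H, SLC30A1 and MTF1, with distance from the annotated start in bases on the horizontal axis. MT1H has 8 matches, MT2A 7, MT1X 4, SLC30A1 1 and MTF1 0.

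The arrays read these genes at very different brightness. Of the 17 probe sets, 15 passed the filter, which asked for a signal no lower than the median of the array on 3 or more of the 24 replicated arrays. The 2 that did not pass were the MT1M probe set 217546_at, whose highest deposited signal was 22.1, and the SLC30A1 probe set 242716_at, whose highest was 6.95. Of the 11 metallothionein probe sets 10 passed, and 9 of them were at or above the median on all 24 arrays. The remaining one, MT1G 210472_at, lay at the floor of 20 on 19 of 24 arrays, and its signals are not given one by one. It still counts among the 15 probe sets and in the mean of the 10 kept metallothionein probe sets used to find like genes. All 9 bright metallothionein probe sets carry the suffix x_at, which Affymetrix gives to probe sets whose probes can also read other sequences. Metallothionein transcripts are close to each other in sequence, so a value under 1 gene name may include its relatives. The probe set 204326_x_at is named MT1X in the array annotation, but the accession listed for it belongs to MT1L, a transcribed pseudogene, in the RefSeq table. The 36 pairs among the 9 bright probe sets correlated across the 24 arrays with Pearson's r from 0.41 to 0.97 and a median of 0.78, a description in which the points share groups, probes and normalisation.

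Facts of the whole series touch the results as follows. The mean deposited signal was 142.784 to 142.787 on 24 of the 26 arrays, but 165.87 and 173.72 on replicates 2 and 3 of compound 40, so arrays were quantile normalised. The 3′ over 5′ ratio of the ACTB control probe sets was 2.37 on WT8 replicate 3 and at most 1.39 on the other arrays. The renal markers PAX8 (761 to 1329), VIM (7208 to 8708), KRT8 (570 to 1420), KRT18 (821 to 2098) and CDH2 (524 to 1033) stood well above the floor on all arrays. PAX2 (22.1 to 177) and EPCAM (20 to 139) came down to or near the floor, and CA9 was not analysed here. PTPRC, CD14 and VWF, which mark leukocytes and endothelium, were at the floor on all arrays, whereas PECAM1 (45.5 to 117), COL1A1 (30.3 to 145), LUM (up to 113) and ITGAM (up to 66.6) were not. Identical columns were looked for and 0 were found, and array-to-array correlations reached 0.978.

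The vehicle was set against untreated cells first, to give the background for the compounds. In DMSO against Blk, 0 of the 15 probe sets were called at a Benjamini-Hochberg adjusted p below 0.05 in limma, where 0% of all 35013 kept probe sets were called and 794 (2.27%) had an unadjusted p below 0.05. No metallothionein probe set had an unadjusted p below 0.05. The median log2 difference of the 9 bright metallothionein probe sets was 0.06, with values from -0.16 to 0.10, and the median over all kept probe sets was 0.

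Metallothionein signals were lower with compounds 40, 41 and 76 than with DMSO, and with compound 77 a single MT1F probe set passed the test. The 4 comparisons use the same 3 DMSO arrays, so they are not independent and are given side by side. With compound 40, 5 of the 15 probe sets were lower and 0 higher, where 0.346% of all kept probe sets were lower and 0.34% higher. With compound 41, 7 were lower and 0 higher, where 1.37% were lower and 1.17% higher. With compound 76, 7 were lower and 0 higher, where 0.605% were lower and 0.748% higher. With compound 77, 1 was lower and 0 higher, where 0.0486% were lower and 0.123% higher. Every one of these calls was a metallothionein. They came from 4 of the 7 metallothionein genes with compound 40 (MT1E, MT1F, MT1H and MT2A), from 5 with compounds 41 and 76 (MT1X in addition) and from MT1F alone with compound 77.

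All 9 bright metallothionein probe sets had a negative log2 difference from DMSO with each of the 4 compounds. Their median was -0.71 with compound 40, -0.58 with 41, -0.67 with 76 and -0.33 with 77, beside a median of 0 over all kept probe sets in each comparison. The 3 arrays of the compound lay below all 3 DMSO arrays for 8 of the 9 with compound 40 (7.23% of all kept probe sets), for 8 with 41 (9.87%), for 8 with 76 (8.56%) and for 6 with 77 (6.65%). Probe sets that share target sequence are not separate observations of the compounds, so these counts describe the family and do not add evidence to each other.

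MT2A is the most widely expressed human metallothionein. Its probe set 212185_x_at read 5432, 6935 and 6317 with DMSO and 5077, 6378 and 6112 in Blk. It read 3324, 4245 and 3829 with compound 40, 4195, 4665 and 3944 with compound 41, and 3350, 4754 and 3890 with compound 76. With compound 77 it read 4732, 5941 and 5667. The arrays of compounds 40, 41 and 76 all lay below every DMSO array, and those of compound 77 overlapped them. MT2A was 1.64-fold lower with compound 40 (log2 difference -0.71, SE 0.14, n = 3 against 3, limma adjusted p = 0.0138). With signals as deposited, where the columns of compound 40 replicates 2 and 3 are scaled unlike the rest, this difference was -0.44 and was not called (adjusted p = 0.180). MT2A was 1.46-fold lower with compound 41 (adjusted p = 0.0324) and 1.57-fold lower with compound 76 (adjusted p = 0.0139). With signals as deposited the call with compound 41 was lost too (log2 difference -0.46, limma adjusted p = 0.122), and that with 76 held (0.0428). With median scaling MT2A was called with none of compounds 40, 41 and 76 (limma adjusted p = 0.240, 0.436 and 0.237). With compound 77 the log2 difference was -0.19 (SE 0.14) and was not called (adjusted p = 0.831).

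MT1H encodes a metallothionein of the MT1 cluster and showed the largest log2 difference of the kept probe sets of these genes with compound 40. Its probe set 206461_x_at read 2118, 2746 and 2108 with DMSO and 2017, 2412 and 2035 in Blk. It read 770, 1069 and 1223 with compound 40, 1317, 1447 and 1264 with compound 41, and 1047, 1620 and 1173 with compound 76. The arrays of these compounds did not overlap DMSO. Signals with compound 77 were 1689, 2090 and 1896, just under the lowest DMSO array of 2108. MT1H was 2.30-fold lower with compound 40 (log2 difference -1.20, SE 0.19, limma adjusted p = 0.00178). The fall was 1.72-fold with compound 41 (adjusted p = 0.0204) and 1.83-fold with compound 76 (adjusted p = 0.0138). With compound 77 the log2 difference of -0.29 was not called (adjusted p = 0.795).

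MT1F was the only member with a probe set called lower with all 4 compounds. Both MT1E probe sets, MT1H and MT1X 208581_x_at also lay below every DMSO array with each compound, without a call for compound 77. The MT1F probe set called with all 4, 213629_x_at, read 525, 582 and 679 with DMSO and 639, 616 and 732 in Blk. Signals were 315, 413 and 322 with compound 40, 308, 298 and 325 with compound 41, 316, 316 and 314 with compound 76, and 313, 400 and 377 with compound 77. All 12 arrays with a compound lay below all 6 DMSO and Blk arrays. MT1F by this probe set was 1.71-fold lower with compound 40 (adjusted p = 0.00568), 1.91-fold with compound 41 (2.05e-04), 1.88-fold with compound 76 (3.46e-04) and 1.64-fold with compound 77 (0.0215), all from limma. The call for compound 77 was lost when any array but DMSO replicate 1 was left out. The other MT1F probe set, 217165_x_at, read 1448, 1721 and 1540 with DMSO, and 568, 1079 and 842 with compound 40. It was 1.95-fold lower with compound 40 (adjusted p = 0.0232), 1.81-fold with compound 41 (0.0204) and 1.94-fold with compound 76 (0.0141). With compound 77 it read 935, 1286 and 1002, a log2 difference of -0.56 that was not called (adjusted p = 0.433) although the arrays did not overlap.

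MT1E was measured by 2 probe sets. The first, 216336_x_at, read 2663, 2861 and 2489 with DMSO, 1542, 1964 and 1673 with compound 40, 1859, 1982 and 1669 with compound 41 and 1614, 1805 and 1601 with compound 76. No array of these compounds overlapped DMSO, and the signals with compound 77 (2029, 2292 and 2059) did not either. MT1E by this probe set was 1.55-fold lower with compound 40 (adjusted p = 0.0117), 1.46-fold with 41 (0.0126) and 1.60-fold with 76 (0.00265) in limma, and 77 was not called (log2 difference -0.33, adjusted p = 0.437). The second, 212859_x_at, read 4399, 5077 and 4720 with DMSO. It was called with compound 41 (log2 difference -0.50, adjusted p = 0.0455) and compound 76 (-0.60, 0.0206), and missed with compound 40 (-0.52, 0.0828). With 1 array left out, the call with compound 41 held in 0 of 6 fits and that with compound 76 in 2 of 6.

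MT1X is induced by zinc in many human cells. Its probe set 208581_x_at read 3163, 3527 and 3345 with DMSO and 1844, 2643 and 2604 with compound 40. It read 2225, 2295 and 2196 with compound 41, 1954, 2370 and 2132 with compound 76 and 2401, 2953 and 2697 with compound 77. All 4 compounds lay below every DMSO array. MT1X by this probe set was called with compound 41 (1.49-fold lower, adjusted p = 0.0183) and compound 76 (1.56-fold lower, 0.0132), but not with compound 40 (log2 difference -0.52, 0.0788) or 77 (-0.32, 0.559). The probe set that carries an MT1L accession, 204326_x_at, read 1393, 1984 and 1704 with DMSO and 892, 822 and 1076 with compound 40. Its log2 differences were -0.86, -0.75 and -0.73 with compounds 40, 41 and 76, and none was called (adjusted p = 0.0527, 0.0540 and 0.0880). With the replicate number as a block, fitted over all groups together, it was called with compounds 40, 41 and 76 (adjusted p = 0.0245, 0.0286 and 0.0476). The number was read as a pairing where each correlation r of same-numbered arrays was above 0.1, which held for compounds 41 and 76 with DMSO. Compound 40 missed this cutoff, with r of 0.141, 0.077 and 0.096, against at most 0.022 for different numbers.

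MT1G had the widest error of the bright probe sets (SE 0.27 on the log2 scale). Probe set 204745_x_at read 1954, 1454 and 1152 with DMSO, 871, 1577 and 779 with compound 40, 1170, 1571 and 802 with compound 41, 858, 1163 and 1258 with compound 76, and 1061, 1267 and 1207 with compound 77. The groups overlapped throughout, and its log2 differences from -0.34 to -0.54 were not called (limma adjusted p = 0.448 to 0.864). Its median correlation with the other 8 bright metallothionein probe sets was 0.59, the lowest of the 9. MT1M was not detected above the floor on 23 of the 24 replicated arrays.

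Set in order of mean signal, MT2A ran from DMSO (6228 ± 756, SD, n = 3 for each group) through Blk (5856 ± 687), 77 (5447 ± 634), WT8 (4899 ± 690), PRC3 (4744 ± 289), 41 (4268 ± 366) and 76 (3998 ± 708) to 40 (3800 ± 461). Each group's arrays overlapped those of the next in this order, so neighbours do not differ beyond their spread. MT1F 213629_x_at was ordered with a gap: Blk, WT8, DMSO and PRC3 averaged 662, 625, 595 and 565, and 77, 40, 76 and 41 averaged 363, 349.6, 316 and 311. PRC3 and 77 were the only neighbours in that order whose arrays did not overlap.

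**Figure D2:**
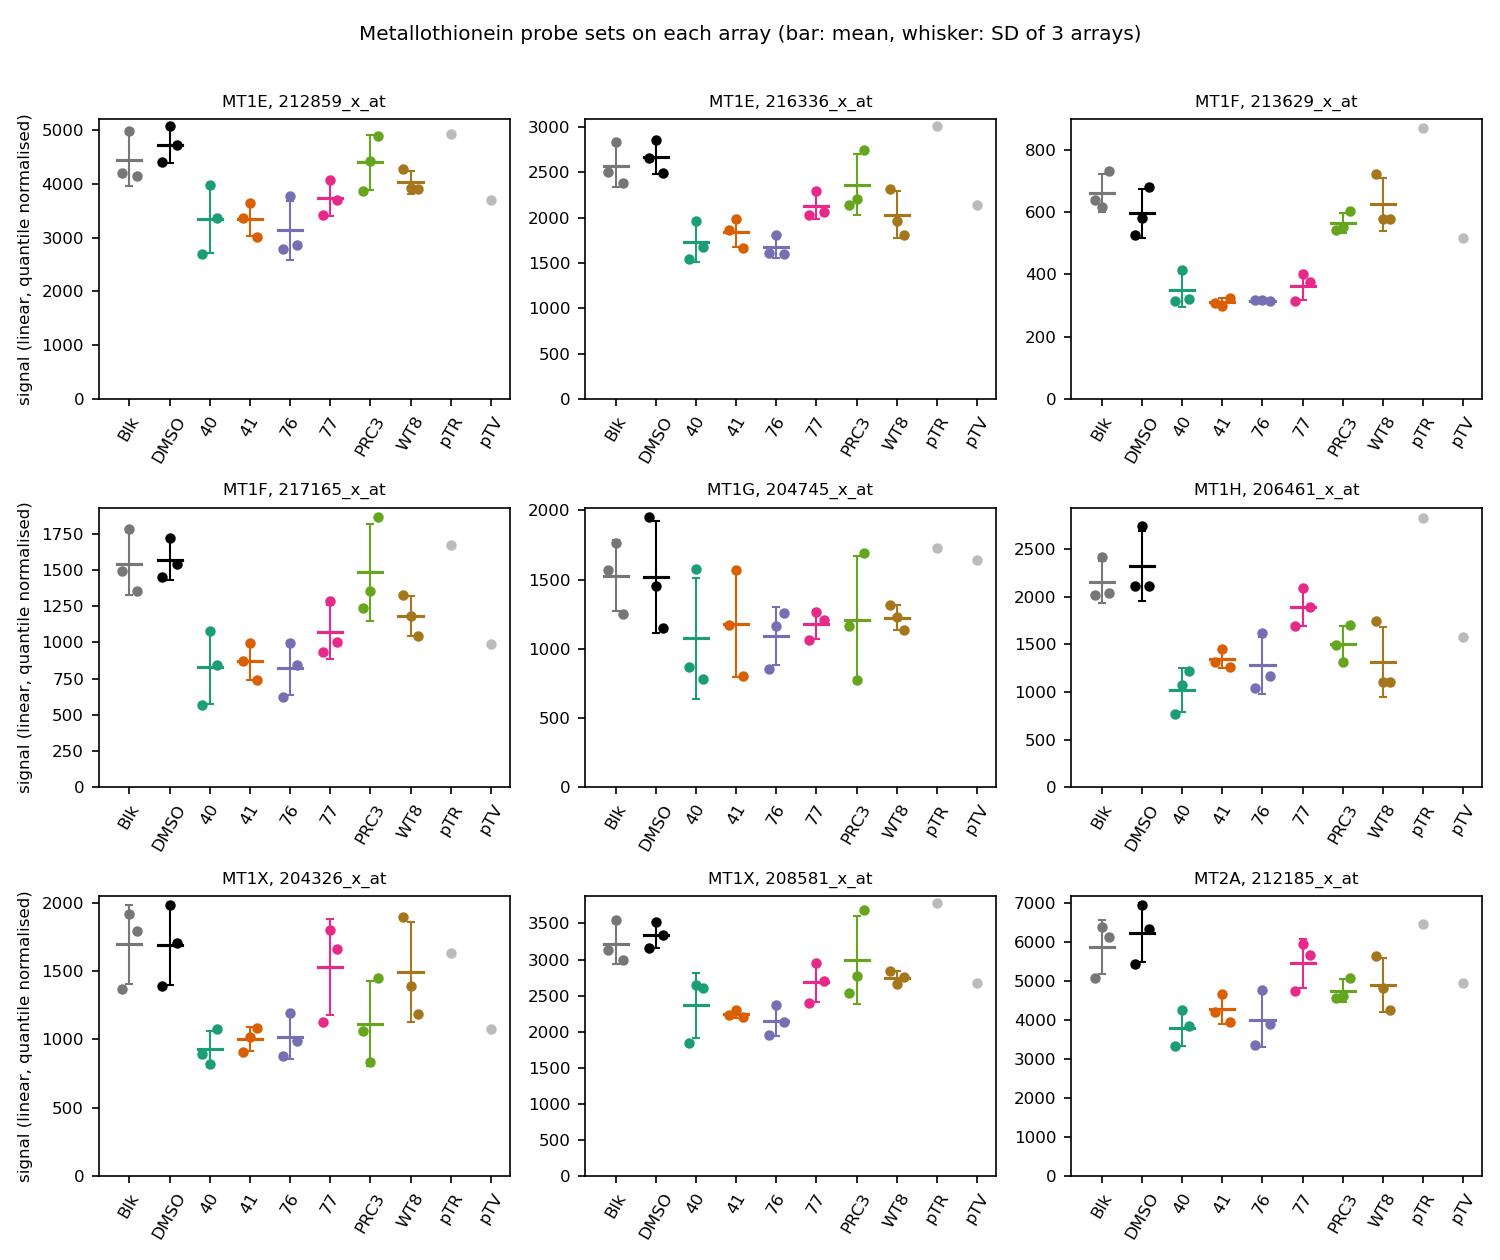
Quantile normalised signal (linear) of the bright metallothionein probe sets on each array by group, with the group mean as a bar and the SD as a whisker and the single arrays pTR and pTV as points. For MT1F 213629_x_at all arrays of compounds 40, 41, 76 and 77 (298 to 413) lie below all DMSO and Blk arrays (525 to 732).

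Array quality differed between groups for compound 40. Its replicates 2 and 3 had ACTB 3′ over 5′ ratios of 1.32 and 1.25, against at most 1.15 on Blk, DMSO and other compound arrays, and their deposited columns were scaled unlike the rest. With replicate 1 as the only compound 40 array, the median log2 difference of the 9 was -0.90 and that of MT1F 217165_x_at was -1.46. In that fit the lone array is assumed to vary like the arrays of the other groups, and 2 of the 15 probe sets were called, beside 25 of all kept probe sets. The part of array quality in the compound 40 result was not tested.

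Against the untreated cells in place of DMSO, an alternative chosen after seeing the data, the counts were close. With Blk as the control, 6 of the 15 were lower with compound 40 (0.531% of all kept probe sets were lower), 6 with 41 (1.76%), 6 with 76 (0.934%) and 1 with 77 (0.169%), and none was higher. All 9 bright metallothionein probe sets again had a negative difference with each compound.

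Which DMSO or compound array was left out mattered to the counts. Leaving out DMSO replicate 2 left 2 calls with compound 40, 1 with 41 and 2 with 76, and leaving out DMSO replicate 3 left 3 with each. Calls over all kept probe sets fell in the same fits, from 240 to 50 and 122 with compound 40, from 889 to 509 and 554 with 41, and from 474 to 277 and 267 with 76. Leaving out compound 41 replicate 1 left 2 calls and replicate 3 left 1, and leaving out compound 76 replicate 1 left 2 and replicate 3 left 3. Over all kept probe sets those fits called 419 and 489 with compound 41, and 381 and 226 with 76. The calls that held in all 6 fits with an array left out were MT1F 213629_x_at with compounds 40, 41 and 76, MT1H with compound 40 and MT1E 216336_x_at with compound 76. In every fit that was run, all 9 bright metallothionein probe sets stayed below the control (DMSO or Blk) with compounds 40, 41 and 76, and at least 8 of 9 did with compound 77. Much of this was fixed in advance. The floor of 50, the filters, the replicate block and fits of 2 groups left the median unchanged (-0.71 with compound 40). Where arrays did not overlap, leaving 1 out could not turn the sign.

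**Figure D3:**
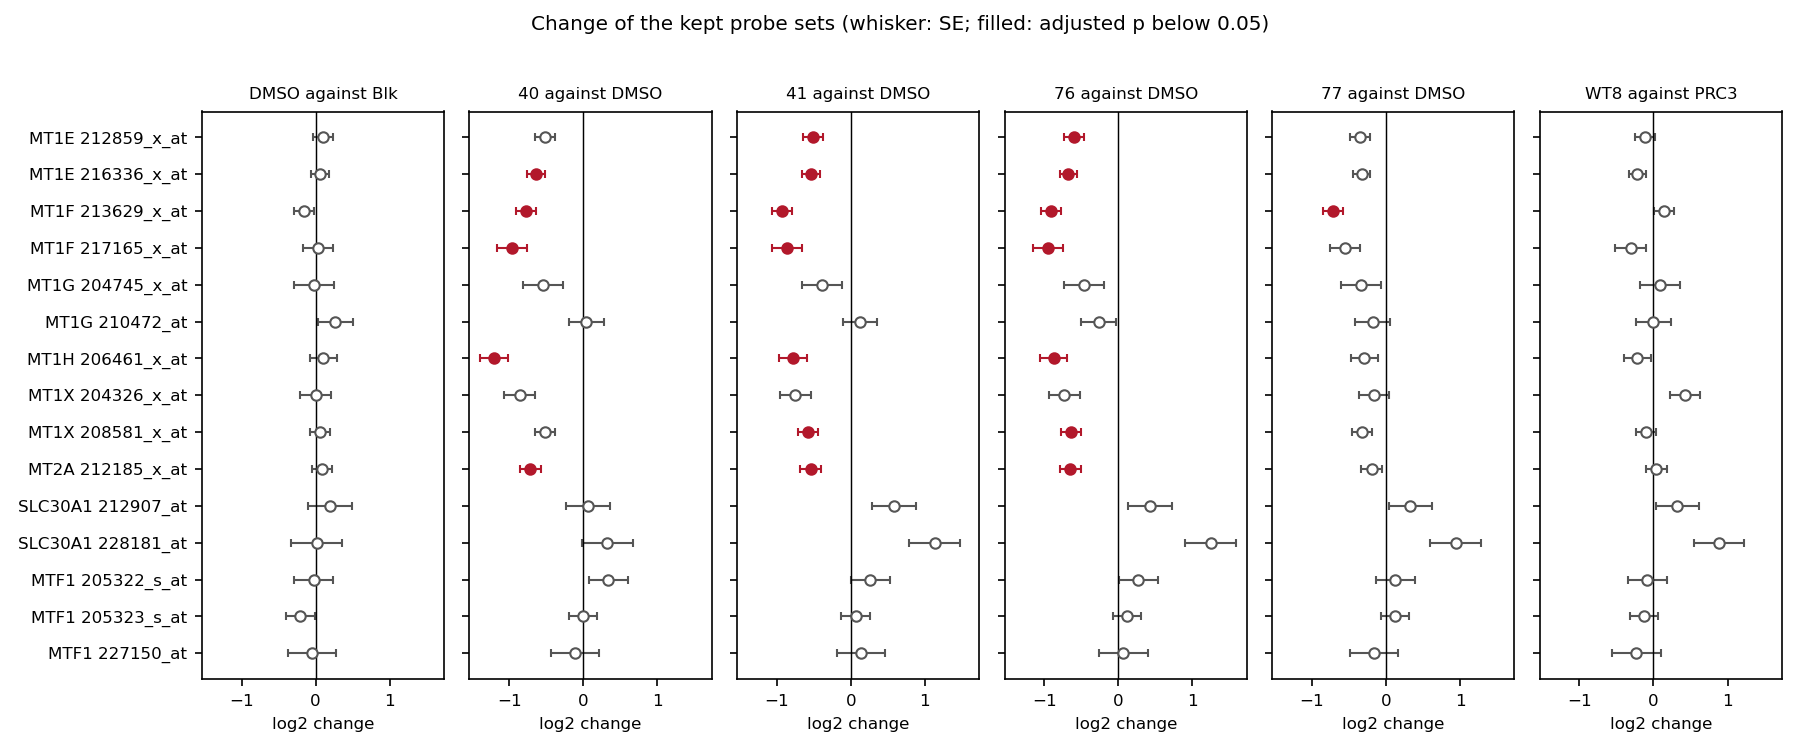
Log2 difference of each of the 15 kept probe sets in DMSO against Blk, in compounds 40, 41, 76 and 77 against DMSO and in WT8 against PRC3, with the standard error from limma as a whisker and filled points for calls. With the compounds the 9 bright metallothionein probe sets all lie below 0, with medians of -0.71, -0.58, -0.67 and -0.33, and SLC30A1 228181_at lies above 0 (0.32, 1.13, 1.24 and 0.94).

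Compounds were also compared with each other at the groups as labelled. There were 6 pairs, with p-values adjusted over all kept probe sets and the 6 pairs together, where 0.337% of all tests were called. Of the kept probe sets of these genes, only MT1H in 77 against 40 was called. Its signals were 1689, 2090 and 1896 with compound 77 and 770, 1069 and 1223 with compound 40, with no overlap. The log2 difference was 0.91 (95% interval 0.53 to 1.29, limma adjusted p = 0.0265), and the call was lost without compound 40 replicate 1 or 2, or without compound 77 replicate 2 or 3.

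All 9 bright metallothionein probe sets had higher mean log2 signals with compound 77 than with 40, 41 or 76. The medians of these log2 differences were 0.31, 0.26 and 0.35. For MT2A the difference of 77 from 40 was 0.52 (95% interval 0.24 to 0.80, adjusted p = 0.128), from 41 it was 0.35 (0.06 to 0.63, adjusted p = 0.407) and from 76 it was 0.45 (0.17 to 0.74, adjusted p = 0.211). None of these MT2A values passed the adjusted threshold. Compounds 40, 41 and 76 did not differ from one another past the threshold for any of these genes, which does not show that they act alike. The interval of 76 against 41 was -0.39 to 0.18 for MT2A and -0.47 to 0.29 for MT1H. MT1F 213629_x_at, the probe set called lower with every compound, differed between 77 and 40 by 0.06 (95% interval -0.22 to 0.33).

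**Figure D4:**
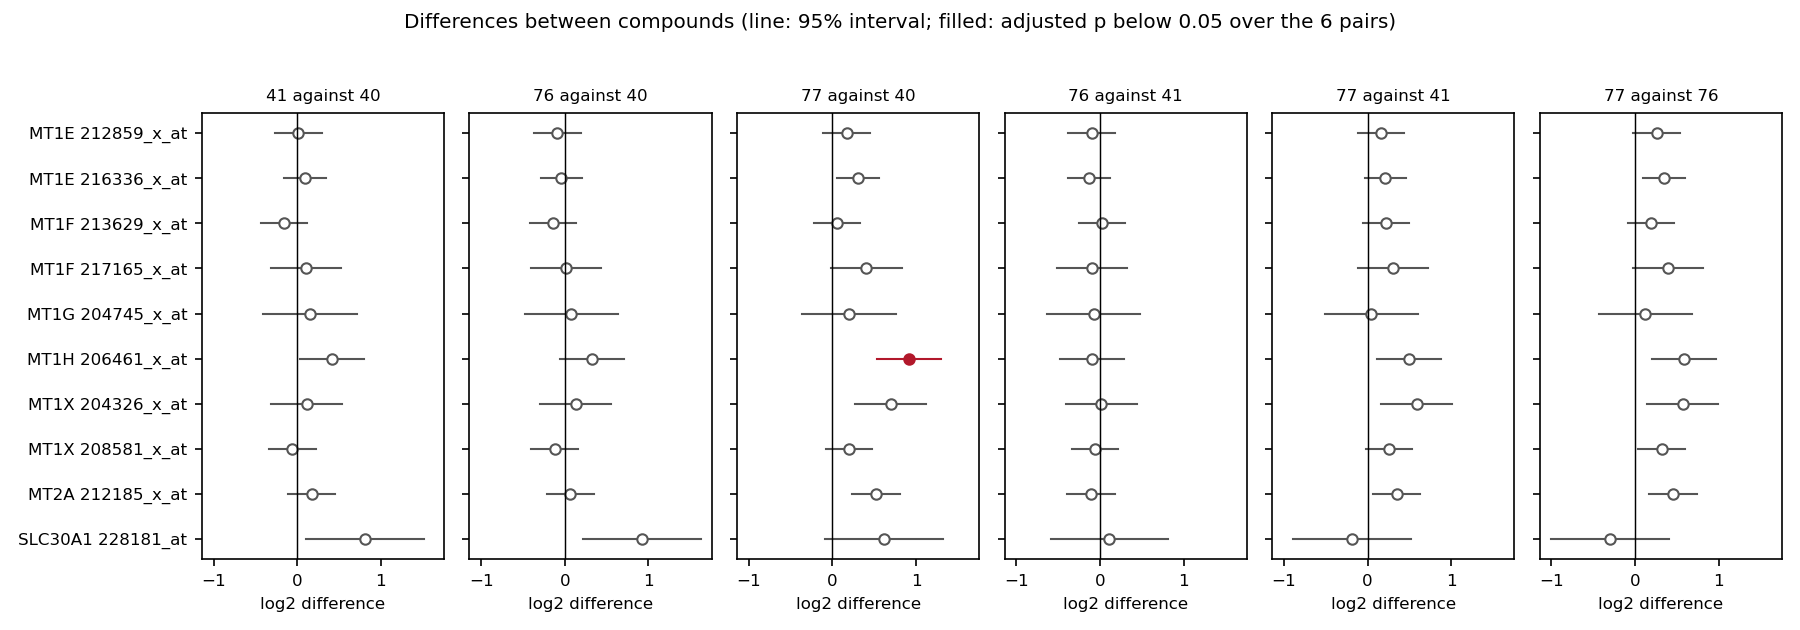
Log2 differences between compounds for metallothionein probe sets and SLC30A1 228181_at in 6 panels, 1 per pair, with 95% intervals from limma. Of the probe sets plotted only MT1H in 77 against 40 (0.91, interval 0.53 to 1.29) was called.

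MTF1, the transcription factor, passed the test with no compound. It was read by 3 probe sets, all dim. 205323_s_at read 141, 113 and 131 with DMSO, and 122, 126 and 134 with compound 40, 141, 155 and 109 with 41, 151, 112 and 156 with 76 and 142, 143 and 132 with 77. The groups overlapped. Log2 differences from DMSO over the 3 probe sets and 4 compounds ran from -0.16 to 0.34, and in limma 0 were called and 0 had an unadjusted p below 0.05. Its transcript level says nothing of its activity, which zinc sets on the protein.

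SLC30A1, the exporter, ran the other way in value. Probe set 228181_at read 27.0, 54.7 and 35.1 with DMSO and 37.2, 56.8 and 23.8 in Blk. It read 87.6, 93.0 and 66.7 with compound 41, above every DMSO array, as did 10.4% of all kept probe sets. With compound 76 it read 84.3, 114 and 71.9, also above every DMSO array (8.63% of all kept probe sets). With compound 40 it read 47.7, 48.9 and 43.6, and with compound 77 47.3, 117 and 66.4, both overlapping DMSO. The log2 difference was 1.13 with compound 41 (SE 0.34, limma adjusted p = 0.0827) and 1.24 with compound 76 (SE 0.34, adjusted p = 0.0747), and neither was called. Blocking on the replicate number gave an adjusted p of 0.0324 with compound 41 and 0.0261 with compound 76, so that both were called. Raising the filter to the 75th percentile of each array gave 0.0483 and 0.0422. A floor of 50, above 2 of its 3 DMSO signals, took the log2 differences down to 0.66 (adjusted p = 0.234) and 0.78 (adjusted p = 0.185), and in the remaining fits neither was called. With compounds 40 and 77 the log2 differences were 0.32 and 0.94 (adjusted p = 0.778 and 0.429), and with a floor of 50 they were -0.04 and 0.50.

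By mean signal of 228181_at the groups ran WT8 (108 ± 12.1, SD, n = 3 for each group), 76 (90.0 ± 21.4), 41 (82.4 ± 13.9), 77 (76.8 ± 35.9), PRC3 (59.8 ± 18.9), 40 (46.7 ± 2.80), Blk (39.3 ± 16.6) and DMSO (38.9 ± 14.2), and every neighbour in this order overlapped the next.

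The brighter SLC30A1 probe set, 212907_at, gave smaller differences. It read 120, 207 and 175 with DMSO, 134, 203 and 182 with compound 40, 236, 310 and 201 with 41, 171, 271 and 229 with 76 and 162, 265 and 203 with 77. All compound groups overlapped DMSO. The log2 differences were 0.06, 0.58, 0.43 and 0.33, and none was called (adjusted p = 0.409 to 0.977). No pair of compounds differed past the threshold for either probe set.

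**Figure D5:**
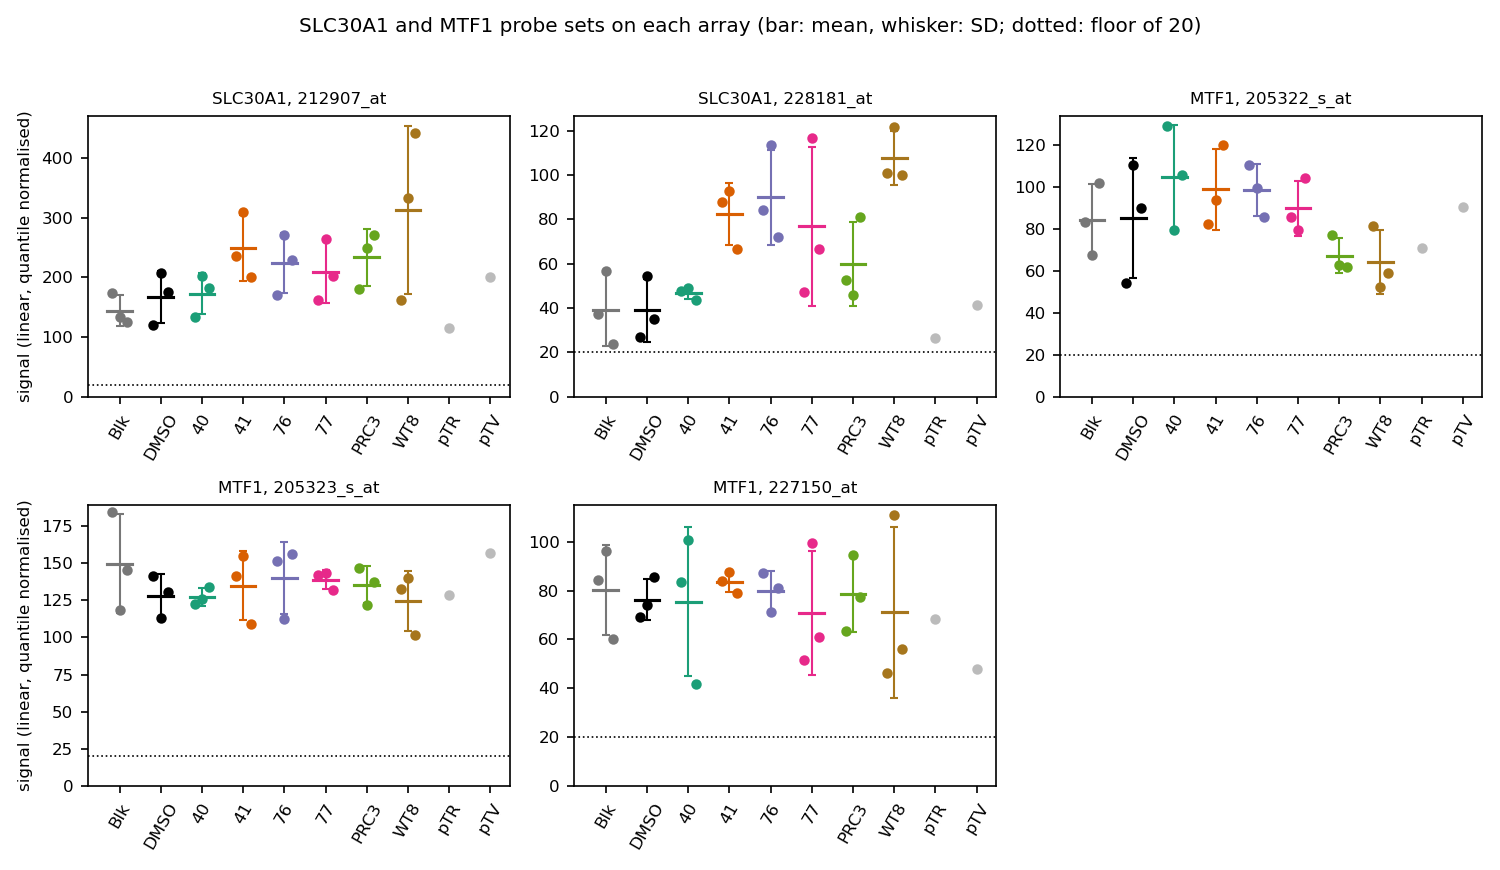
Quantile normalised signal (linear) of the kept SLC30A1 and MTF1 probe sets on each array by group, with the group mean as a bar, the SD as a whisker and the floor of 20 as a dotted line. For SLC30A1 228181_at the arrays of compounds 41 and 76 (66.7 to 114) lie above the DMSO arrays (27.0 to 54.7), and for MTF1 the groups overlap. Of all kept probe sets, 10.4% lie above every DMSO array with compound 41 and 8.63% with compound 76.

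Between WT8 and PRC3 no gene of the set passed the test. In WT8 against PRC3, 0 of the 15 probe sets were called, where 4.56% of all kept probe sets were called in either direction, and 2 of the 15, 1 of them a metallothionein, had an unadjusted p below 0.05, beside 15.6% of all kept probe sets. MT2A read 5628, 4815 and 4256 in WT8 and 4553, 4604 and 5077 in PRC3, with overlap. SLC30A1 228181_at read 101, 122 and 100 in WT8 and 52.5, 45.7 and 81.3 in PRC3, a log2 difference of 0.89 (limma adjusted p = 0.170). These arrays did not overlap, as for 8.18% of all kept probe sets in that direction. The other SLC30A1 probe set, 212907_at, read 163, 333 and 442 in WT8, with the highest value on the array whose ACTB ratio was 2.37, and 181, 249 and 272 in PRC3. Without that array 0 of the 15 were called too, and the log2 difference of SLC30A1 228181_at was 0.93.

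PRC3 against Blk gave no call either. In limma 0 of the 15 probe sets were called, where 1.03% of all kept probe sets were called in either direction. All 9 bright metallothionein probe sets were lower in value, with a median log2 difference of -0.23, and 3 of them had an unadjusted p below 0.05, as did 1 SLC30A1 probe set, beside 11.2% of all kept probe sets. MT1H and MT1F 213629_x_at did not overlap between the groups, 2 of the 9, where 7.43% of all kept probe sets did not overlap in that direction.

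On the single arrays, which allow no test, all 9 bright metallothionein probe sets were higher on pTR than on pTV, with a median log2 difference of 0.50. On the same pair 44.3% of all kept probe sets were higher on pTR. MT2A read 6463 on pTR and 4937 on pTV, and MT1F 213629_x_at read 869 and 516. SLC30A1 read lower on pTR, 114 against 201 by 212907_at and 26.4 against 41.2 by 228181_at.

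Few of the other zinc and copper genes were called. These lists were chosen with earlier results of the data known. Over the compounds, 0.0486% to 1.37% of all kept probe sets were called lower and 0.123% to 1.17% higher, so 0 calls in a short list do not set it apart. Of 13 other metallothioneins 2 were measured, and MT1HL1 was lower with compound 40 (log2 difference -0.89, limma adjusted p = 0.0155) and with 76 (-0.88, 0.00785), as well as in WT8 against PRC3 (-0.62, 0.0391). Of 9 further zinc exporters and vesicle loaders 7 were measured and 0 were called with any compound. Of 14 zinc importers 13 were measured, and 1 was called with a compound, SLC39A14, which was lower with 76 (log2 difference -0.52, adjusted p = 0.0345). Of 11 copper genes 10 were measured, and COMMD1 was higher with compound 41 (0.60, adjusted p = 0.0180). In WT8 against PRC3, 1 of these exporters and loaders, 1 importer and 1 copper gene were higher, and 1 importer was lower. There 4.56% of all kept probe sets were called. In PRC3 against Blk 1 importer was higher, where 1.03% were called.

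Genes outside the metallothioneins that cadmium is known to induce were mostly higher with compounds 40, 41 and 76. Of 9 such genes, a list also chosen with earlier results of these data known, 7 were measured. Called higher were 5 with compound 40 (0.34% of all kept probe sets), 7 with 41 (1.17%), 6 with 76 (0.748%) and 0 with 77 (0.123%). The median log2 differences of the 7 were 0.81, 1.54, 1.66 and 0.09. HMOX1, heme oxygenase, averaged 90.6 ± 16.7 (SD, n = 3) with DMSO, and 844 ± 350, 2684 ± 839, 2685 ± 998 and 110 ± 18.8 with compounds 40, 41, 76 and 77. GCLM, which makes glutathione's limiting precursor with GCLC, was 2.67-fold higher with compound 41 (adjusted p = 4.39e-08) and 3.02-fold with 76 (8.12e-09). These genes answer to oxidants as well as to cadmium, and how they relate to the metallothioneins was not tested.

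Genes whose level followed the metallothioneins were picked by Pearson's r, over 24 arrays, with the mean log2 signal of the 10 kept metallothionein probe sets, among 15116 genes. These are descriptions: the arrays share groups and normalisation. The most alike were SERPINA1 (r = 0.86), which encodes alpha-1 antitrypsin, then YWHAH (0.83), CTSS (0.82), LMNB1 (0.80), ZMIZ2 (0.79) and STAP2 (0.78). The most opposite were DST (-0.81), ME1 (-0.80) and SEL1L3 (-0.80). SERPINA1 had log2 differences of -1.15, -1.15, -1.39 and -0.38 with compounds 40, 41, 76 and 77. SLC30A1 had r = -0.13 and -0.24 by its kept probe sets.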

How the data were processed

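Total RNA of 786-O cells was measured on 26 Affymetrix U133 Plus 2.0 arrays. The deposited values are linear signals, 1 per probe set, made with MAS5 (no version given) per the submitters' processing notes. A floor of 20 and a ceiling of 16000 come from the labels' protocols. Probe sets were named from the array annotation, and 62 control probe sets were left out. The signals of 26 arrays were quantile normalised, floored at 20, capped at 16000 and taken to log2. Probe sets no lower than the array's median on 3 or more of 24 arrays were kept, 35013 of 54613. One fit with limma 3.58.1 in R 4.3.3 (lmFit, eBayes with trend, 16 residual degrees of freedom) covered the 24 replicated arrays, and Benjamini-Hochberg adjustment ran over all kept probe sets, with calls below 0.05. The fit was tested on simulated data. Same-numbered arrays deviated together (each r above 0.1) for DMSO and Blk, 41 and DMSO, 76 and DMSO, WT8 and PRC3, and 76 and 41. There the replicate number was read as a pairing. The main fit left it out in every comparison, and only the alternative with a replicate block used it. The replicate block was fitted over all groups together, so it also gave values for the other comparisons. The labels give the number but do not say what it marks. The number of arrays limits precision. The members and gene lists were chosen with earlier results of these data known. All probe sets of the 9 genes are described; of other lists, up to 4 called genes a comparison could be named, and HMOX1 always. Alternatives were signals as deposited, median scaling, other floors and filters, a replicate block, each comparison fitted alone, each array left out and, chosen after seeing the data, Blk as the control.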

Additional observations from a re-analysis of the deposited data

Results flagged for a closer look

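MT1H 206461_x_at differed between compounds 77 and 40 by 0.91 on the log2 scale (limma adjusted p = 0.0265, Benjamini-Hochberg over all kept probe sets and 6 pairs), in a test of the difference itself. All 3 arrays with compound 77 lay above all 3 with compound 40.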

How the results depend on the processing

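Counts of called probe sets among the 15 changed with the processing, and no called value changed sign. Uncalled values did: SLC30A1 228181_at with 40 went from 0.32 to -0.04 with a floor of 50, and the median of the 9 bright metallothionein probe sets went from -0.11 to 0.05 in WT8 against PRC3 without PRC3 replicate 3 and from 0.06 to -0.01 in DMSO against Blk without DMSO replicate 2. Using signals as deposited gave 2 with compound 40, 2 with 41, 5 with 76, 0 with 77 and 0 in the pairs. Over all kept probe sets, 214, 806, 409 and 45 were then called with 40, 41, 76 and 77. With 41 the lower calls among them were 479, beside 478 in the main fit. Median scaling gave 2, 1 and 1 with 40, 41 and 76, and 0 with 77 and in the pairs. A floor of 50 gave 4 with 41, where 869 of all kept probe sets were called, and 0 in the pairs. Keeping all probe sets gave 2 with 41 (660 called over all probe sets), 4 with 76 (395) and 0 in the pairs. The 75th percentile filter gave 8 with 40, where 283 of all kept probe sets were called. Fitting 2 groups alone gave 0 with 40, 2 with 41, 1 with 76 and 0 with 77, and the 4 compound groups alone gave 0 in the pairs. Compound 40 with only its replicate 1 gave 2. For 40 and most pairs of compounds, not every r of same-numbered arrays was above 0.1. For 40 and DMSO these r were 0.141, 0.077 and 0.096, against at most 0.022 for different numbers. With the replicate number as a block 8 were called with 40 (1.53% of all kept) and 2 in the pairs. Where each r was above 0.1, the block changed the calls of MT1X 204326_x_at and SLC30A1 228181_at with 41 and 76 and no other call of these genes. Leaving out 1 array gave 2 to 5 with 40, 1 to 6 with 41, 2 to 7 with 76, 0 to 1 with 77, 0 to 1 in the pairs and 0 elsewhere. The cause of these changes was not tested. Over all kept probe sets, 240 were called with 40, and 534 with the block, 100 with median scaling, 149 with all probe sets kept, 25 with replicate 1 only and 6 with 2 groups alone. For 41 the counts were 889, 1525 with the block, 512 with median scaling and 374 with 2 groups alone. For 76 they were 474, 849 with the block and 126 with 2 groups alone, and for 77 they were 60, 175 with the block, 27 with median scaling, 34 with all probe sets kept, 106 against Blk and 0 with 2 groups alone. For PRC3 against Blk they were 362, 697 with the block, 186 with median scaling and 0 with 2 groups alone, for WT8 against PRC3 1597 and 19 with 2 groups alone, and for DMSO against Blk 0 and 3 with all probe sets kept. The split of higher against lower calls moved from 822 and 775 to 443 and 742 in WT8 against PRC3 and from 411 and 478 to 302 and 210 with 41 under median scaling, from 262 and 212 to 212 and 111 with 76 under median scaling, and, with signals as deposited, from 119 and 121 to 154 and 60 with 40 and from 146 and 216 to 142 and 129 in PRC3 against Blk.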

Other observations

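In the groups Blk, DMSO, 40, 41, 76 and 77, the mean log2 signal of the 9 bright metallothionein probe sets was highest in replicate 2 in 6 of 6 groups, and SLC30A1 228181_at was also highest there in 6 of 6. SLC30A1 212907_at was highest there in 5 of 6. PRC3 and WT8 were left out of these counts, and replicate 2 was singled out, after the values were seen. The metallothionein mean was highest in replicate 3 of PRC3 and replicate 1 of WT8. Of all kept probe sets, 1.60% were highest in replicate 2 in 6 of 6 groups and 5.72% in at least 5. Because the replicate and the groups were chosen from these values, these shares are a description and no test. As a description over 24 arrays, deviations from the group mean of SLC30A1 228181_at and of the metallothionein mean correlated with Pearson's r = 0.63, and those of 212907_at with r = 0.28, while group means with compounds 41 and 76 lay on opposite sides of DMSO for 228181_at and the metallothionein mean. Same-numbered arrays of several groups also deviated together over all kept probe sets, and the part of this in these r values was not tested.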
